A study of Drosophila melanogaster with 12 samples.

Results

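The Jonah and Try genes of *Drosophila melanogaster* encode secreted digestive proteases of the gut, and 27 of them were measured among the 14001 genes of an RNA sequencing study of insecticide resistance. The members are every gene whose symbol begins with Jon and a number, 16 genes, or ends in Try, 11 genes. The rule used symbols and no expression value, although it was set with earlier results of these data known. RNA came from whole bodies, total RNA, in 4 groups of 3 libraries: resistant adults, sensitive adults, resistant larvae and sensitive larvae. Both larval groups were third-instar, the last larval stage before the animal forms a pupa. The resistant strain withstands avermectins, insecticides that open chloride channels of nerve and muscle gated by glutamate, and the sensitive strain was labelled wild type. No agent other than the labelled resistance, and no transgene, is named for any group. Sex, age in days, food and whether replicates were separate cultures are not among the labels. The p-values therefore measure how far these libraries spread, and that spread may be technical.

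Both sets of genes belong to the S1A family of serine proteases, which cut proteins with a serine in the active site and are made as inactive precursors. Trypsins cut after lysine or arginine. The Jonah proteases are chymotrypsin-like and were first described as a family of genes active in the gut. Enterocytes, the absorptive cells of the midgut, secrete these enzymes into the gut lumen, which is lined by the peritrophic matrix, a sheet of chitin and chitin-binding proteins, and there they digest dietary protein. Larvae feed and grow almost without pause, while adult flies feed for upkeep and reproduction.

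The 27 genes lay at 8 places in the dm6 genome. All 11 Try genes stood in 1 cluster of 20698 bp on chromosome arm 2R (2R:11336840-11357537), together with 3 further protein-coding genes, CG13202, CG30025 and CG30031. The Jonah genes were spread over 7 places. These were the 3 Jon25B genes (2L:4949941-4955144), Jon44E (2R:8691448-8692844), the 4 Jon65A genes (3L:6039155-6054443), the 2 Jon66C genes (3L:8391540-8393649), Jon74E (3L:17548077-17549127), the 3 Jon99C genes (3R:29922216-29926189) and the 2 Jon99F genes (3R:30487016-30489895). The genes are short, with 810 to 1397 bp of exon, and 17 of the 27, of them 10 Try genes, have a single exon and a single transcript. Within the Try cluster neighbours lie close together, and the 3′ ends of lambdaTry and kappaTry face each other 5 bases apart. Jon44E overlaps CG8586 by 49 bp and deltaTry overlaps CG13202 by 15 bp, both on the opposite strand. The sources used here do not say whether strand was used in counting, so reads from these overlaps could not be told apart.

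Depth was even across the study. It was estimated at 11260000 to 12320000 reads, and each library had 12997 to 13452 genes above 0. Markers fitted the labelled stages. Summed over 6 salivary glue genes, which larvae make to fix the pupal case, levels were 7.33 to 49.6 FPKM in resistant adults, 4.14 to 7.15 FPKM in sensitive adults, 30366 to 52183 FPKM in resistant larvae and 28668 to 51751 FPKM in sensitive larvae. FPKM are fragments corrected for the length of the transcript and for the size of the library, so levels can be set side by side between genes. Between libraries they keep differences in RNA make-up, with total FPKM from 775870 to 1005446 per library, and comparisons are therefore also given after a rescaling of the libraries. All 27 members were measured above 1 FPKM in each of the 12 libraries, and all 27 passed the expression filter in each test.

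Sensitive larvae replicate 1 stood apart from its group in the protease genes. It held the highest value of its group for 27 of 27 members, while it was the highest for 31.1% of all genes. Its values were 2.73 times the mean of the other sensitive larvae at the median member, from 1.64 times for zetaTry to 4.86 times for Jon74E, against 0.997 times at the median gene. Other secreted proteases of the S1A family followed it, with a sum over 23 genes of 19275 FPKM in replicate 1 against 6677 and 6212 FPKM in the others. Enterocyte markers, 10 genes, summed to 607 FPKM in replicate 1 against 261 and 237 FPKM, and 7 peritrophic matrix genes summed to 3043 FPKM against 4876 and 5690.1 FPKM. Counts of members called against the sensitive larvae are therefore given with and without this library, as are the gene lists set beside them. The library was singled out by the values of these same members, so p-values of fits without it cannot be taken at face value. Members also moved together in other groups, by less. Replicate 3 was the highest for 17 members in resistant adults, 25 in sensitive adults and 20 in resistant larvae. The shares of all genes were 29.2, 21.1 and 37.4%, and the median members stood at 1.345, 1.25 and 1.32 times the other libraries. Replicate 1 was the lowest for 25 members in sensitive adults and 25 in resistant larvae. The median members stood at 0.683 and 0.656 times, against 1.04 and 1.016 times at the median gene. The share of all genes that were lowest there was not counted.

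Proteases of the 2 sets took a larger part of the RNA in larvae than in adults. They held 1.42, 1.39 and 2.22% of all FPKM in resistant adults, 2.54, 2.72 and 2.91% in sensitive adults, 6.40, 7.71 and 8.63% in resistant larvae, and 10.9, 4.56 and 4.17% in sensitive larvae. Adult and larval shares did not overlap in either strain. In bulk samples, fewer cells of a type and less RNA per cell cannot be told apart. Jonah genes held more than Try genes in every library, and the ratio of their summed FPKM was 2.37, 2.52 and 1.48 in resistant adults, 1.17, 1.23 and 1.18 in sensitive adults, 3.81, 3.82 and 3.43 in resistant larvae and 5.29, 6.18 and 6.83 in sensitive larvae. The lean towards Jonah genes was thus strongest in sensitive larvae and weakest in sensitive adults, with no overlap between any of the 4 groups.

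**Figure D1:**
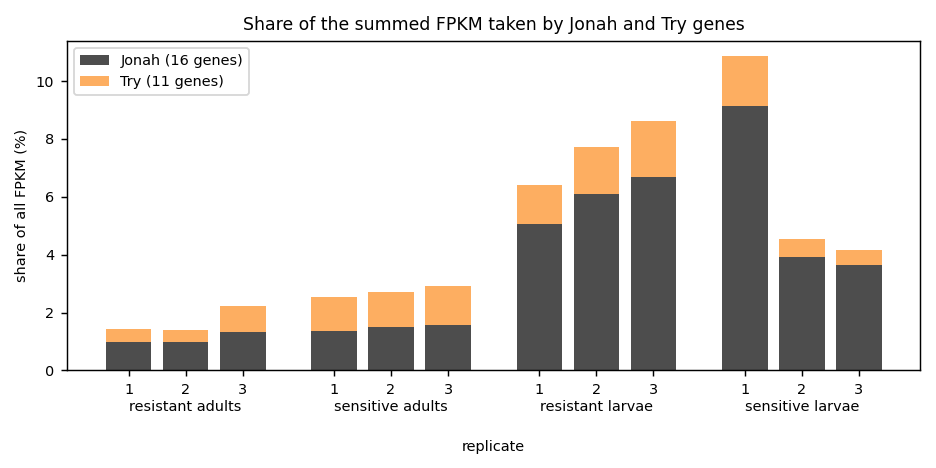
Share of all FPKM in a library (%, vertical axis) taken by the 16 Jonah genes and the 11 Try genes, stacked, in each of the 12 libraries. Adult libraries lie between 1.39 and 2.91%, and larval libraries between 4.17 and 10.9%, with sensitive larvae replicate 1 the highest.

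Sensitive adults were led by other genes than the remaining 3 groups. Jon99Ciii led the family in 3 groups, at 2385 ± 285 FPKM in resistant adults, 10677 ± 1390.5 FPKM in resistant larvae and 13786 ± 7321 FPKM in sensitive larvae (SD, n = 3 each, as throughout). In sensitive adults the trypsin genes alphaTry, at 4851 ± 825 FPKM, and betaTry, at 4505 ± 493 FPKM, led instead and ranked 5 and 9 among all genes by mean FPKM. Resistant larvae were led by Jon99Ciii and Jon65Aiv, at 10109 ± 1346 FPKM, which ranked 6 and 8. In sensitive larvae Jon99Ciii and Jon99Cii, at 11912 ± 5719 FPKM, held the same ranks. Members at a mean of 1000 FPKM or more numbered 6 in resistant adults, 7 in sensitive adults, 15 in resistant larvae and 13 in sensitive larvae. The least abundant member was Jon66Cii in both adult groups, at 6.44 ± 5.10 FPKM in resistant adults and 3.07 ± 0.55 FPKM in sensitive adults. In larvae it was lambdaTry, at 25.8 ± 42.2 FPKM in resistant larvae and 28.4 ± 26.2 FPKM in sensitive larvae.

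**Figure D2:**
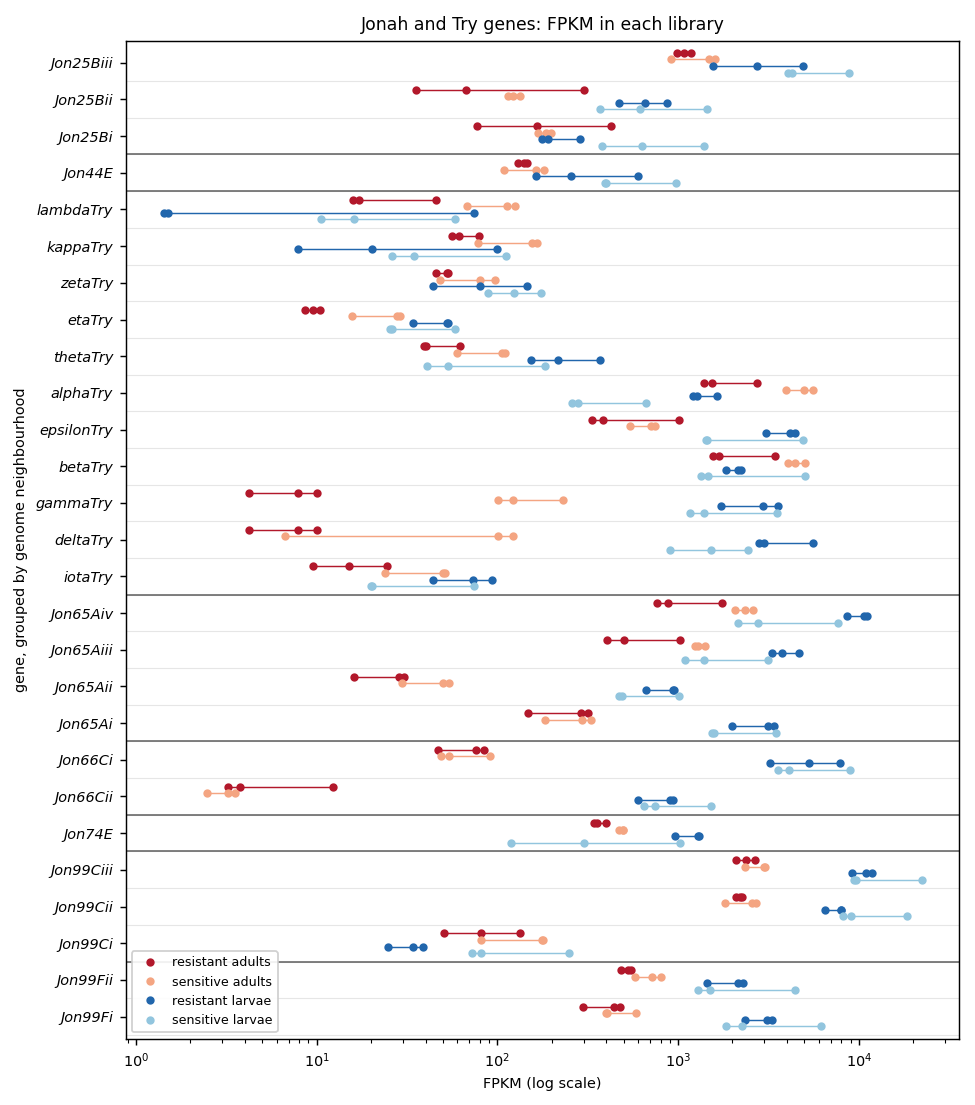
FPKM of each Jonah and Try gene (horizontal log axis) in each library, with points of a group joined by a line and genes grouped by their place in the genome. gammaTry and deltaTry, the Jon66C genes and Jon65Aii lie far to the left in adults, while alphaTry lies further right in sensitive adults than in the other groups.

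The comparison of adults with larvae asked, within each strain, which protease genes belong to which stage. Most members fell in adults. Of 27 tested in the resistant strain, 20 were lower and 1 higher in adults by limma's test at an adjusted p of 0.05, against 17.4% lower and 34.7% higher among all 12013 genes tested. In the sensitive strain 15 were lower and 3 higher, against 13.2% lower and 55.7% higher of 11644 genes. The median log2 fold change was -2.16 over the members and 0.28 over all genes in the resistant strain, and -1.71 and 0.62 in the sensitive strain. Median-of-ratios scaling, which removes most of that shift of all genes, gave 20 lower and 0 higher in the resistant strain, against 25% and 28.3% of all genes, and 19 lower and 2 higher in the sensitive strain, against 26% and 29%. All 20 and 15 members lower without scaling were also lower with it.

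Larva-biased members were led by a pair of trypsin genes, the Jon66C genes and Jon65Aii. Of the 16 Jonah genes, 14 were lower and 1 higher in resistant adults than in resistant larvae, and 12 were lower and 0 higher in sensitive adults than in sensitive larvae. The Jonah gene Jon66Ci was at 46.8, 76.0 and 83.8 FPKM in resistant adults and 48.7, 54.2 and 91.2 FPKM in sensitive adults. Its larval values were 3242, 5321 and 7905 FPKM in the resistant and 8936, 3559.6 and 4089 FPKM in the sensitive strain. Adult and larval values were far apart, and the log2 fold change was -6.25 ± 0.35 (SE) in the resistant strain (adjusted p 5.437e-08, limma) and -6.32 ± 0.37 in the sensitive strain (adjusted p 1.204e-06). Jon66Cii, its neighbour on the other strand 442 bases away, fell as well, with log2 fold changes of -6.95 ± 0.41 and -7.80 ± 0.30 in the same strains. Jon65Aii, a Jonah gene of the 65A cluster, had -5.07 ± 0.28 and -3.81 ± 0.34, and its neighbour Jon65Ai -3.53 ± 0.33 and -2.96 ± 0.35. Jon99Fi (-2.86 and -2.70), Jon99Fii (-1.89 and -1.56), Jon25Bii (-2.82 and -2.47) and Jon44E (-1.08 and -1.85) were lower in both strains too, as were the 3 abundant genes described next. Jon65Aiv (-3.25), Jon65Aiii (-2.71) and Jon74E (-1.68) were lower in the resistant strain, and in the sensitive strain their log2 fold changes of -0.62, -0.36 and 0.54 did not pass (adjusted p 0.2194, 0.385 and 0.4619). After scaling Jon65Aiv and Jon65Aiii passed there too, at -1.30 and -1.04. Jon25Bi was lower in the sensitive strain (-1.91, adjusted p 0.002652), and its change of -0.27 in the resistant strain did not pass (adjusted p 0.7163).

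Jon99Ciii and Jon99Cii, the most abundant Jonah genes of adults, were also lower than in larvae. Jon99Ciii was at 2387, 2099 and 2668 FPKM in resistant adults and 2356, 2989 and 3040.5 FPKM in sensitive adults, against 9162, 11895 and 10975 FPKM in resistant larvae and 22238, 9449.8 and 9669 FPKM in sensitive larvae. Every adult library lay below every larval library, and the log2 fold change was -2.16 ± 0.25 in the resistant strain (adjusted p 2.414e-05) and -2.19 ± 0.33 in the sensitive strain (adjusted p 0.000438). Jon99Cii, which lies 298 bases from it, was at 2091, 2262 and 2208 FPKM in resistant adults, 1807, 2579 and 2710.1 FPKM in sensitive adults, 6474, 8016 and 7933 FPKM in resistant larvae, and 18497, 9034 and 8203 FPKM in sensitive larvae. It fell too, by log2 fold changes of -1.77 ± 0.24 in the resistant and -2.25 ± 0.33 in the sensitive strain. Jon25Biii, the most abundant gene of the 25B cluster, was at 1078, 1185 and 992 FPKM in resistant adults and 912, 1480.4 and 1610.4 FPKM in sensitive adults. Its larval levels were 1570.0, 2732 and 4899 FPKM in the resistant and 8860.2, 4061 and 4275 FPKM in the sensitive strain, with log2 fold changes of -1.35 ± 0.36 and -2.05 ± 0.34 in these strains.

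The third gene of the 99C cluster did not follow its neighbours. Jon99Ci was at 81.1, 50.6 and 133 FPKM in resistant adults, 81.6, 176 and 178 FPKM in sensitive adults, 24.7, 34.1 and 39.0 FPKM in resistant larvae, and 248, 81.0 and 72.8 FPKM in sensitive larvae. In the resistant strain every adult library was above every larval one, with a log2 fold change of 1.33 ± 0.33 (adjusted p 0.005853), a call that ended after scaling (1.05 ± 0.41, adjusted p 0.05735). In the sensitive strain the groups overlapped (0.27 ± 0.48, adjusted p 0.6347).

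Among the 11 Try genes the stages divided the cluster. The genes gammaTry and deltaTry had the largest falls of the family in resistant adults, at -8.36 ± 0.34 and -8.81 ± 0.34 on the log2 scale, and also fell in sensitive adults, at -3.65 ± 0.45 and -5.03 ± 0.94. Their values are described together below, because reads of the pair may not have been separable. epsilonTry fell in both strains, at 575 ± 376 FPKM in resistant adults against 3882 ± 736 FPKM in resistant larvae, and 666 ± 111 FPKM in sensitive adults against 2587 ± 2002 FPKM in sensitive larvae. Its call in the sensitive strain ended without sensitive adults replicate 1 (log2 fold change -1.12, adjusted p 0.08711). etaTry, thetaTry and iotaTry fell in resistant adults, with log2 fold changes of -2.16 ± 0.24, -2.30 ± 0.32 and -2.07 ± 0.35, while in the sensitive strain their log2 fold changes were -0.52, 0.26 and 0.33 with adjusted p from 0.2032 to 0.661. zetaTry passed in neither strain without scaling (-0.66 and -0.77, adjusted p 0.1523 and 0.05029). After scaling zetaTry (-1.45) and etaTry (-1.18) passed in the sensitive strain.

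In the opposite direction, alphaTry was higher in sensitive adults than in each of the other groups. It was at 1542, 1397 and 2741 FPKM in resistant adults, 3969, 4981 and 5604 FPKM in sensitive adults, 1212, 1632 and 1274 FPKM in resistant larvae, and 661, 260.1 and 281 FPKM in sensitive larvae. Adults of the sensitive strain were above its larvae throughout, with a log2 fold change of 3.72 ± 0.35 (adjusted p 2.273e-05), or 3.03 ± 0.36 after scaling. In the resistant strain the stages overlapped (0.41 ± 0.30, adjusted p 0.2721). The paralogue betaTry lies 1 gene away and was at 1693, 1561 and 3434 FPKM in resistant adults, 4039, 4454 and 5021 FPKM in sensitive adults, 1846, 2239 and 2138 FPKM in resistant larvae, and 5013, 1471 and 1334 FPKM in sensitive larvae. Adult and larval values of betaTry overlapped in both strains, at 0.01 ± 0.32 on the log2 scale in the resistant and 1.07 ± 0.45 in the sensitive strain, with adjusted p of 0.9753 and 0.06372. lambdaTry rose in sensitive adults (2.13 ± 0.54, adjusted p 0.007003), and so did kappaTry (1.42 ± 0.51, adjusted p 0.03367), whose call ended after scaling (0.74, adjusted p 0.2556).

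Leaving out single libraries left 19 to 22 members called in the resistant and 14 to 22 in the sensitive strain. Of all genes, 37.7 to 57.6% and 59.5 to 71.5% were then called. Without sensitive larvae replicate 1, the same 15 members were lower in sensitive adults, against 9.51% of all genes, with log2 fold changes of -7.43 for Jon66Cii, -5.91 for Jon66Ci, -1.89 for Jon99Cii and -1.78 for Jon99Ciii. The higher members then numbered 7, against 53.2% of all genes, with alphaTry at 4.15, kappaTry at 2.04 and lambdaTry at 2.83 and with the addition of betaTry (1.68, adjusted p 0.0002622), Jon74E (1.35, adjusted p 0.01156), thetaTry (0.91, adjusted p 0.0256) and iotaTry (0.94, adjusted p 0.03415). The kappaTry call ended when any sensitive library other than sensitive larvae replicate 1 was left out (adjusted p up to 0.1662). That of lambdaTry ended without any of the 3 sensitive adults (adjusted p up to 0.07427), and that of Jon99Fii without sensitive adults replicate 1 (adjusted p 0.09229). In the resistant strain the Jon44E call (-1.08, adjusted p 0.04323) ended without any library other than resistant larvae replicate 1 (adjusted p up to 0.1972). The call of Jon25Bii, which was at 67.2, 35.4 and 303 FPKM in resistant adults, ended without resistant adults replicate 1 or 2 (adjusted p up to 0.1272).

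**Figure D3:**
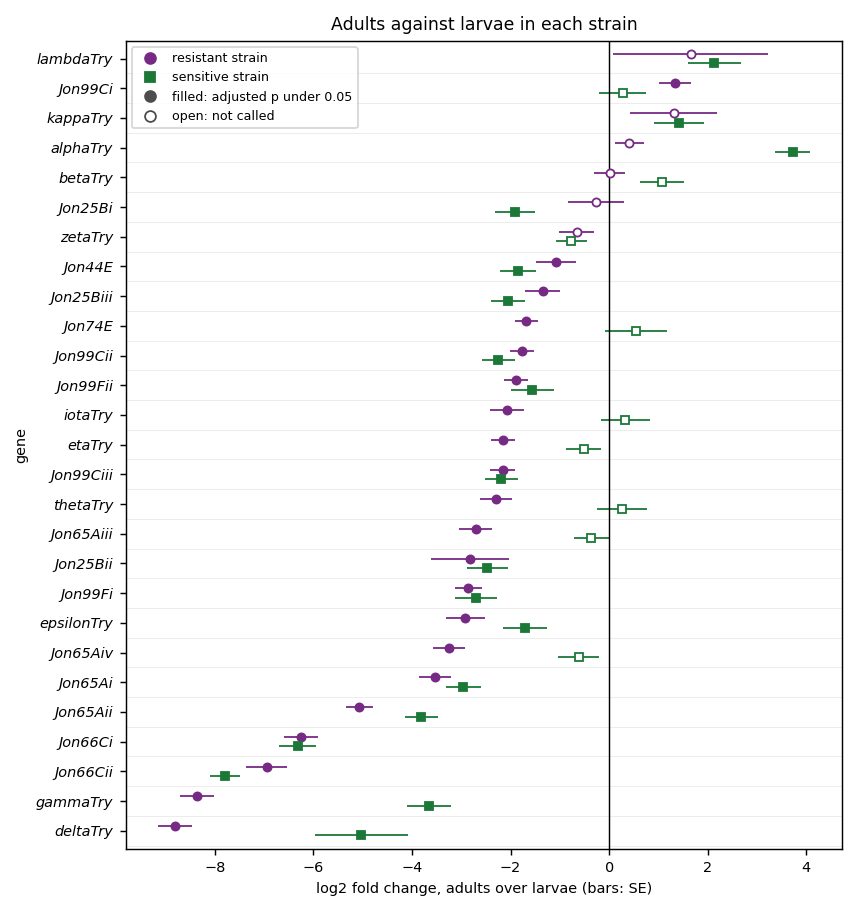
Log2 fold change of adults over larvae, on the log2(FPKM + 1) scale, with its standard error, for each Jonah and Try gene in the resistant and in the sensitive strain. Most genes lie below 0 in both strains, gammaTry and deltaTry reach -8.36 and -8.81 in the resistant strain, and alphaTry stands at 3.72 in the sensitive strain.

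Other secreted proteases of the S1A family, 23 genes of which yip7, Try29F, Phae1, Phae2 and the Ser genes carry names, moved in both directions. In the resistant strain 10 of 22 tested were higher and 9 lower in adults, and their median was 0.23 on the log2 scale (-0.05 after scaling), where 34.7% of all genes were higher and 17.4% lower. In the sensitive strain 10 of 21 were higher and 5 lower, with a median of 0.52 (-0.16 after scaling), where 55.7% of all genes were higher and 13.2% lower. Without sensitive larvae replicate 1, 11 of 20 were higher and 5 lower, against 53.2% and 9.51% of all genes. The list also holds Sems, a protease of the male accessory gland. CG7542 was at 23.0, 21.2 and 102 FPKM in resistant adults and 164, 273 and 259 FPKM in sensitive adults, and was listed at 0 in every resistant larval library and at 0.11 to 0.21 FPKM in sensitive larvae. CG3088 was at 75.3 to 123 FPKM in resistant adults and 67.9 to 165 FPKM in sensitive adults, and at 0.00 to 0.11 FPKM in larvae. CG11912 went the other way, with log2 fold changes of -5.77 ± 0.30 in the resistant and -3.88 ± 0.46 in the sensitive strain. CG18179 fell in the sensitive strain (-2.61 ± 0.29), and CG30025, a gene within the Try cluster, fell in the resistant strain (-6.58 ± 1.5, adjusted p 0.01867). Enterocyte markers were also divided. Of 10, 4 were higher and 5 lower in the resistant strain, and 5 were higher and 2 lower in the sensitive strain, or 5 and 1 without sensitive larvae replicate 1. The carbohydrate-digesting enzymes Amy-p and Mal-A1 were among the higher genes, with log2 fold changes of 5.81 ± 0.31 and 5.29 ± 0.31 in the resistant and 4.78 ± 0.21 and 6.59 ± 0.35 in the sensitive strain. Peritrophic matrix genes had 2 of 7 higher and 4 lower in each strain, or 2 of 6 higher and 3 lower in the sensitive strain without sensitive larvae replicate 1. Of 12 regulators of midgut digestive genes, described with the strains below, 1 was higher and 6 lower in adults of the resistant strain. In adults of the sensitive strain 5 were higher and 2 lower. This balance turned over after scaling, with 3 higher and 5 lower, against 29% and 26% of all genes. The list's median moved likewise and was -0.24 with scaling and 0.34 without it. Without sensitive larvae replicate 1, 5 of 11 were higher and 1 lower, against the same 53.2% and 9.51% of all genes. The part of these cells in the protease result was not tested.

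The comparison of the strains in adults asked which digestive genes differ between the resistant and the sensitive strain at that stage. The labels name a resistant strain and a sensitive one, labelled wild type. Resistance to avermectins therefore cannot be told apart from genetic background or rearing. Every member that passed was lower in resistant adults. Of 27, 8 were lower and 0 higher, against 3.95% lower and 15.9% higher among 11612 genes, and 6 of the 8 were Try genes: alphaTry, betaTry, gammaTry, etaTry, iotaTry and lambdaTry. The others were the Jonah genes Jon65Aiii and Jon65Aiv. At an unadjusted p under 0.05 in limma, 12 were lower and 0 higher, but the share of all genes at that threshold was not counted. The median log2 fold change was -1.21 over 11 Try genes, -0.24 over 16 Jonah genes and 0.02 over all genes. None of the Try genes had a positive fold change, and 2 of the Jonah genes did, Jon66Ci (0.10) and Jon66Cii (0.67, adjusted p 0.3342).

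The largest adult difference was that of gammaTry, at 10.04, 7.88 and 4.24 FPKM in resistant adults and 231, 100.3 and 122 FPKM in sensitive adults. The groups were far apart, with a log2 fold change of -4.15 ± 0.36 (adjusted p 0.0006075, limma). It was the only one of the 8 calls that held without each of the 6 adult libraries, at -4.40 to -3.80. deltaTry had the same FPKM as gammaTry in every adult library except sensitive adults replicate 1, so these values may not be those of gammaTry alone. lambdaTry was at 15.8, 17.1 and 46.0 FPKM in resistant adults and 67.6, 113 and 126 FPKM in sensitive adults, and fell, at -2.04 ± 0.40 on the log2 scale (adjusted p 0.009983). etaTry, among the least abundant trypsin genes, was at 9.52, 8.63 and 10.4 FPKM in resistant adults and 15.6, 27.7 and 28.8 FPKM in sensitive adults, with a log2 fold change of -1.21 ± 0.27 (adjusted p 0.01492). In both genes the resistant values lay below all sensitive ones. iotaTry was at 9.54, 15.04 and 24.5 FPKM in resistant adults and 23.9, 49.7 and 51.5 FPKM in sensitive adults. Its groups touched, and its log2 fold change was -1.32 ± 0.38 (adjusted p 0.03732).

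The abundant trypsins were lower as well. From the values given above, alphaTry had a log2 fold change of -1.41 ± 0.31 (adjusted p 0.0137) and betaTry of -1.10 ± 0.32 (adjusted p 0.03859), with no overlap between the adult groups. The sum over all Try genes was 3827, 3489.9 and 7465 FPKM in resistant adults and 9078, 10878 and 12197 FPKM in sensitive adults. Jon65Aiv was at 878, 762.1 and 1751 FPKM in resistant adults and 2076, 2359.7 and 2582 FPKM in sensitive adults, a log2 fold change of -1.14 ± 0.32 (adjusted p 0.03389). Jon65Aiii, the next gene on the same strand 10621 bases away, was at 503, 407 and 1021 FPKM in resistant adults and 1242, 1284 and 1417 FPKM in sensitive adults, a log2 fold change of -1.14 ± 0.33 (adjusted p 0.03705). Resistant adults replicate 3 was the highest of its group in these 4 genes and the others lay close together.

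The remaining 19 members did not pass in adults. kappaTry, thetaTry and deltaTry came nearest in size among the trypsins, at -0.95 ± 0.30 (adjusted p 0.05319), -0.93 ± 0.29 (adjusted p 0.05009) and -2.52 ± 1.01 (adjusted p 0.1452). deltaTry differed from gammaTry only in sensitive adults replicate 1, and the sum of the pair, given below, passed. The most abundant Jonah genes, Jon99Ciii and Jon99Cii, had log2 fold changes of -0.23 ± 0.24 and -0.09 ± 0.25. Groups did not overlap for 9 members, all lower in resistant adults, where 8.48% of all genes were wholly lower and 23.6% wholly higher. These were 7 of the 8 called genes, iotaTry being the exception, with Jon74E and Jon99Fii added.

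The adult count depended on the scaling and on single libraries. After median-of-ratios scaling 5 members were lower and 0 higher, against 4.41% and 10.6% of all genes. The 5 were Try genes: alphaTry, lambdaTry, gammaTry, iotaTry and etaTry. The adjusted p of betaTry, Jon65Aiii and Jon65Aiv became 0.05773, 0.05119 and 0.05044, with log2 fold changes of -1.25, -1.29 and -1.29. The count was 1 without resistant adults replicate 1, 4 without resistant adults replicate 2, 3 without sensitive adults replicate 2 and 2 without sensitive adults replicate 3, against 12 without resistant adults replicate 3 and 9 without sensitive adults replicate 1. In the same order, 1.19, 2.94, 1.57, 1.51, 5.54 and 3.66% of all genes were lower. Adjusted p reached at most 0.06853 for alphaTry, 0.1725 for betaTry, 0.06633 for etaTry, 0.1619 for iotaTry, 0.05131 for lambdaTry, 0.153 for Jon65Aiii and 0.149 for Jon65Aiv with a library left out, while every fold change kept its sign.

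Other digestive genes were also lower in resistant adults, where 3.95% of all genes were lower and 15.9% higher. Of 22 other S1A proteases tested, 8 were lower and 1 higher, and their median was -0.76 on the log2 scale. CG7542, given above, was lower (-2.58 ± 0.54), as was CG11911 (-1.86 ± 0.30), at 119.7, 139 and 245 FPKM in resistant adults and 498, 571 and 695 FPKM in sensitive adults. CG6592 rose (0.84 ± 0.19) at low levels, 1.01 to 2.11 FPKM in resistant adults and 0.32 to 0.42 FPKM in sensitive adults. Enterocyte markers were lower in 4 of 10 and higher in 0, with a median of -0.98, and their sum was 1909, 1749.7 and 2852 FPKM in resistant adults and 2734, 3645 and 3497 FPKM in sensitive adults. The midgut gene mex1 was at 8.02, 7.55 and 9.65 FPKM in resistant adults and 23.8, 27.1 and 29.0 FPKM in sensitive adults (-1.56 ± 0.22), and the maltase gene Mal-A1 was lower too (-1.39 ± 0.29). Of 6 larval fat body markers 5 were higher, and their sum was 235 to 382 FPKM in resistant adults and 77.7 to 95.9 FPKM in sensitive adults. Enteroendocrine markers summed to 109 to 145 FPKM in resistant adults and 87.0 to 93.0 FPKM in sensitive adults, with 1 of 8 tested higher and 0 lower. The higher gene was CCHa2, a gut peptide hormone, at 75.4, 59.5 and 95.6 FPKM in resistant adults and 29.6, 32.3 and 30.3 FPKM in sensitive adults, while the median log2 fold change of the list was -0.33. The part of these markers in the protease result was not tested.

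The regulators of midgut digestive genes were a list of 12, among them the midgut transcription factor GATAe and the Activin-type ligand daw with its receptors babo and put, a pathway that represses digestive enzymes on a sugar-rich diet. Of 11 tested in adults, 4 were lower and 0 higher, against 3.95% and 15.9% of all genes. The lower genes were Akh, the adipokinetic hormone, its receptor AkhR (-0.99 ± 0.26), the sugar-responsive factor sug (-0.84 ± 0.26) and tobi, an alpha-glucosidase gene named as a target of brain insulin and not itself a regulator. GATAe was at 3.42, 2.73 and 5.35 FPKM in resistant adults and 9.69, 5.20 and 4.66 FPKM in sensitive adults and did not pass (adjusted p 0.2282).

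**Figure D4:**
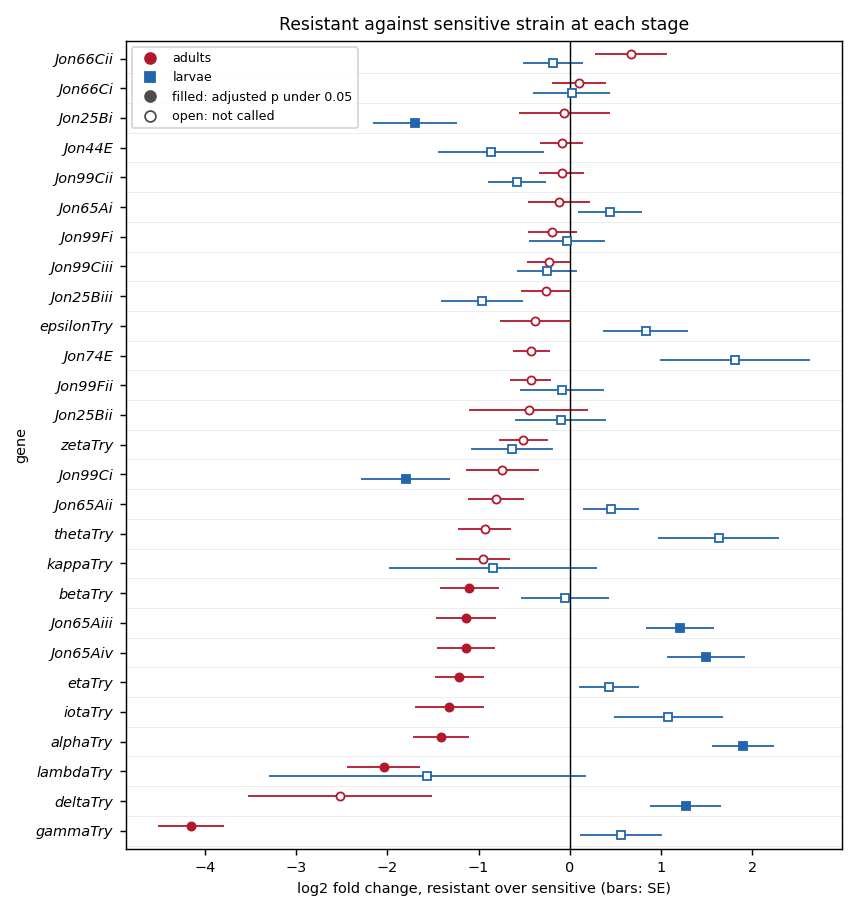
Log2 fold change of the resistant over the sensitive strain, on the log2(FPKM + 1) scale, with its standard error, for each Jonah and Try gene in adults and in larvae. In adults 25 of 27 genes lie below 0, led by gammaTry at -4.15, and in larvae alphaTry, at 1.90, and Jon74E, at 1.81, lie furthest above 0.

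In larvae the same question gave a divided answer. Of 27 members, 4 were higher and 2 lower in resistant larvae, against 48.8% higher and 9.84% lower among 11055 genes. The higher genes were the trypsins alphaTry and deltaTry and the Jonah genes Jon65Aiii and Jon65Aiv, and the lower ones were the Jonah genes Jon25Bi and Jon99Ci. The median log2 fold change was -0.03 over the members and 0.49 over all genes. After scaling, which brought the median of all genes to 0.02, 1 member was higher and 4 were lower, against 11% and 19.2% of all genes. alphaTry remained higher, Jon25Bi and Jon99Ci remained lower, and the Jonah genes Jon25Biii (-1.53, adjusted p 0.03038) and Jon99Cii (-1.15, adjusted p 0.01749) were added among the lower ones.

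alphaTry rose, with a log2 fold change of 1.90 ± 0.34 (adjusted p 0.002036), or 1.33 ± 0.34 after scaling (adjusted p 0.01272), and every resistant larval library was above every sensitive one. The call held without each of the 6 larval libraries, at 1.66 to 2.33. Jon65Aiv was at 8582, 10622 and 11124 FPKM in resistant larvae and 7679, 2775 and 2138 FPKM in sensitive larvae, a log2 fold change of 1.49 ± 0.43 (adjusted p 0.01752). Jon65Aiii was at 3316, 3782 and 4689 FPKM in resistant larvae and 3139, 1398 and 1088 FPKM in sensitive larvae, a log2 fold change of 1.21 ± 0.37 (adjusted p 0.01904). In both genes sensitive larvae replicate 1 came close to the resistant values and the other sensitive libraries were well below. Neither call held after scaling (adjusted p 0.1233 and 0.1926). That of Jon65Aiv ended without resistant larvae replicate 1 or 2 or sensitive larvae replicate 2, and that of Jon65Aiii without resistant larvae replicate 3 or sensitive larvae replicate 2 or 3 (adjusted p up to 0.05762 and 0.06175).

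The lower genes were less abundant. Jon25Bi was at 189.6, 286 and 177 FPKM in resistant larvae and 1383, 635 and 379 FPKM in sensitive larvae, with a log2 fold change of -1.70 ± 0.46 (adjusted p 0.0153). In adults of the 2 strains it was at 166, 76.6 and 424 FPKM in the resistant and 167, 186 and 198 FPKM in the sensitive group. Jon99Ci, whose larval values are given above, fell, at -1.80 ± 0.49 (adjusted p 0.02017). The groups of both genes did not overlap. The call of Jon25Bi ended without resistant larvae replicate 1 (adjusted p 0.06791) and that of Jon99Ci without resistant larvae replicate 1 or 2 (adjusted p up to 0.0755).

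Sensitive larvae replicate 1 decided how many members passed. Without it, 12 members were higher and 2 lower in resistant larvae, against 42.1% higher and 8.29% lower among all genes. The median log2 fold change was then 0.5 over the members and 0.5 over all genes, and this fit was not rescaled. The added genes were the trypsins epsilonTry (1.42), thetaTry (2.28), gammaTry (1.05), iotaTry (1.70) and etaTry (0.81) and the Jonah genes Jon74E (2.61), Jon65Ai (0.83) and Jon65Aii (0.81), with adjusted p from 0.001096 to 0.03051. Jon74E was at 1299.5, 1293 and 958 FPKM in resistant larvae and 1027, 303 and 119.7 FPKM in sensitive larvae, so replicate 1 alone lay within the resistant range. The count was 3 without resistant larvae replicate 1 and 3 without sensitive larvae replicate 2, where 48.2% and 49.1% of all genes were called in either direction. Groups did not overlap for 4 members wholly higher and 3 wholly lower in resistant larvae, where 54.1% and 11.1% of all genes were. They were the 6 called genes and Jon99Cii.

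The 2 least steady genes stood side by side in the Try cluster. lambdaTry was at 1.42, 1.51 and 74.6 FPKM in resistant larvae and 58.5, 15.99 and 10.6 FPKM in sensitive larvae, and its neighbour kappaTry was at 7.92, 20.2 and 99.0 FPKM and 111, 26.1 and 34.6 FPKM in the same groups. Resistant larvae replicate 3 was the highest resistant library in both, and sensitive larvae replicate 1 the highest sensitive one. Neither gene passed (adjusted p 0.48 and 0.5609). Both genes were steadier in adults, where kappaTry was at 61.3, 56.3 and 79.1 FPKM in the resistant and 78.2, 155 and 167 FPKM in the sensitive group. The other members that passed in neither larvae nor adults, among them zetaTry, Jon44E and the Jon66C and Jon99F genes, had adjusted p in larvae from 0.08207 for thetaTry to 0.9655 for Jon66Ci.

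Other digestive genes in larvae gave mixed counts. Among all genes 48.8% were higher and 9.84% lower in resistant larvae, or 11% and 19.2% after scaling, and the lists are read against these shares. Of 15 other S1A proteases tested, 6 were higher and 1 lower, and their median was 0.91 on the log2 scale, and after scaling 4 were higher and 1 lower, with a median of 0.35. yip7 was at 5361, 6622 and 7453 FPKM in resistant larvae and 3585, 1244 and 1017 FPKM in sensitive larvae (1.95 ± 0.44), and CG11529 was at 53.8 to 68.3 FPKM in resistant larvae and 6.73 to 15.8 FPKM in sensitive larvae (2.35 ± 0.27). CG18179 was lower (-1.90 ± 0.61, adjusted p 0.04244). Of 12 regulators, 9 were higher and 2 lower, and scaling left 3 higher and 2 lower, with put (1.16 ± 0.15) and Mad (1.13 ± 0.21), the receptor and a signal carrier of the wider TGF-beta pathway, highest and tobi (-2.68 ± 0.20) and AkhR (-0.68 ± 0.19) lower. Enterocyte markers were higher in 3 of 10 and lower in 1, or higher in 1 and lower in 2 after scaling. Their median fold change on the log2 scale was -0.06 with scaling and 0.49 without it. They summed to 362, 479.9 and 482 FPKM in resistant larvae and 607, 261 and 237 FPKM in sensitive larvae. Of 5 peritrophic matrix genes tested, 1 was higher and 3 lower, or 0 higher and 3 lower after scaling, and the sum over the list was 1037, 1236 and 2053 FPKM in resistant larvae and 3043, 4876 and 5690.1 FPKM in sensitive larvae. Lysosomal and aspartic proteases, which work in acid compartments, were higher in 3 of 4, and after scaling 1 was higher and 1 lower. Without sensitive larvae replicate 1 and without scaling, 42.1% of all genes were higher and 8.29% lower. In that fit 7 of 14 S1A proteases were higher and 0 lower, and 9 of 12 regulators higher and 2 lower. Of 10 enterocyte markers 6 were higher and 1 lower, and of 5 peritrophic matrix genes 1 was higher and 3 lower. Lysosomal and aspartic proteases were higher in 3 of 4. The part of these genes in the protease result was not tested.

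Whether the strain effect differed between the stages was tested over all 12 libraries as the strain effect in adults minus that in larvae, which equals the stage effect in the resistant strain minus that in the sensitive strain. Of 27 members, 7 were lower and 0 higher, against 19.7% lower and 9.98% higher among 12270 genes. The median log2 difference was -0.48 over the members and -0.30 over all genes. At an unadjusted p under 0.05 in limma, 10 were lower and 0 higher, again without a count of all genes at that threshold. The 7 were alphaTry, gammaTry, thetaTry, iotaTry, etaTry, Jon65Aiii and Jon65Aiv. alphaTry had the adult effect of -1.41 and the larval effect of 1.90 given above, and a difference of -3.31 ± 0.48 (adjusted p 0.0004255). gammaTry had a difference of -4.71 ± 0.64 (adjusted p 0.000405), with a larval effect of 0.56. Jon65Aiv and Jon65Aiii had differences of -2.63 ± 0.57 and -2.35 ± 0.52 (adjusted p 0.005546 and 0.006281). These 4, and no other member, also passed after scaling, at -2.86, -4.23, -2.19 and -1.90, where 7.82% of all genes were lower and 15.7% higher. The other 3 did not, with adjusted p of 0.06748 for thetaTry, 0.1045 for iotaTry and 0.08816 for etaTry.

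thetaTry was at 39.2, 40.4 and 61.8 FPKM in resistant adults, 59.7, 106 and 110.2 FPKM in sensitive adults, 154, 217 and 369 FPKM in resistant larvae, and 183, 53.1 and 41.0 FPKM in sensitive larvae, a difference of -2.56 ± 0.72 (adjusted p 0.0223). iotaTry was at 44.2, 73.6 and 93.2 FPKM in resistant larvae and 74.2, 20.2 and 19.9 FPKM in sensitive larvae, a difference of -2.40 ± 0.74 (adjusted p 0.03322). etaTry was at 34.2, 53.4 and 52.7 FPKM in resistant larvae and 58.4, 25.9 and 25.5 FPKM in sensitive larvae, a difference of -1.63 ± 0.44 (adjusted p 0.01533). In each of the 3 genes the resistant strain was the higher one in larvae apart from sensitive larvae replicate 1. Without that library 11 members passed, all lower, against 15.1% lower and 8.11% higher among all genes, with betaTry (-1.67), epsilonTry (-1.80), Jon74E (-3.03) and Jon65Aii (-1.62) added. The thetaTry call ended without resistant adults replicate 1 (adjusted p 0.0515). That of iotaTry ended without any of 7 libraries, namely resistant adults replicate 1, sensitive adults replicates 2 and 3, resistant larvae replicates 2 and 3 and sensitive larvae replicates 2 and 3 (adjusted p up to 0.07745). Of 22 other S1A proteases, 10 were lower and 2 higher for the same difference over all libraries, against 19.7% and 9.98% of all genes. After scaling 6 were lower and 3 higher, against 7.82% and 15.7%. Without sensitive larvae replicate 1, 11 were lower and 2 higher, against 15.1% and 8.11%. The largest over all libraries without scaling were -3.11 ± 0.37 for CG11529 and -3.01 ± 0.51 for yip7. In the other direction they were 3.05 ± 0.78 for CG18179 and 0.89 ± 0.22 for CG6592.

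gammaTry and deltaTry had the same FPKM to 2 decimals in 5 of the 6 adult libraries, and in no larval one. In sensitive adults replicate 1, the exception, gammaTry was at 231 FPKM and deltaTry at 6.70 FPKM. The split of reads between these genes is thus uncertain, and a test of their sum was added after the values were seen. The sum was 20.1, 15.8 and 8.48 FPKM in resistant adults, 237, 201 and 245 FPKM in sensitive adults, 4527, 5960.0 and 9132 FPKM in resistant larvae, and 5979.6, 2898 and 2063 FPKM in sensitive larvae. Sensitive adults were close together in the sum, although replicate 1 divided it in another way. In adults the sum was lower in the resistant strain, with a log2 fold change of -3.93 ± 0.29 (adjusted p 0.0004022). In larvae the strains overlapped, at 0.93 ± 0.41 (adjusted p 0.07693). The overlap came from sensitive larvae replicate 1, the library singled out by these values. Without it the sum was higher in resistant larvae, at 1.36 ± 0.32 (adjusted p 0.006861, limma). With all libraries the larval call of deltaTry alone, at 2809, 2993 and 5567 FPKM in resistant larvae and 2433, 1513 and 906 FPKM in sensitive larvae (1.27 ± 0.39, adjusted p 0.02109), was thus not found in the sum. It also ended after scaling (adjusted p 0.1763). Adults over larvae, the log2 fold change of the sum was -8.71 ± 0.34 in the resistant and -3.85 ± 0.35 in the sensitive strain, and the difference between these was -4.86 ± 0.53 (adjusted p 5.794e-05). Without sensitive larvae replicate 1 it was -3.43 ± 0.22 in the sensitive strain, with a difference of -5.29 ± 0.47.

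Their neighbour CG30025 was less steady between libraries. It was listed at 0, 0 and 19.3 FPKM in resistant adults and at 19.9, 46.0 and 51.9 FPKM in sensitive adults. In larvae it was at 375, 92.4 and 504 FPKM in the resistant and 539, 0.85 and 93.1 FPKM in the sensitive strain. CG30031 was at 0.26 FPKM or less in every library. With both added to the pair, the sum was 20.1, 15.8 and 27.7 FPKM in resistant adults, 257, 247 and 297 FPKM in sensitive adults, 4902, 6053 and 9636 FPKM in resistant larvae, and 6519, 2899 and 2156 FPKM in sensitive larvae. Resistant adults replicate 3, the lowest of its group in the pair, was the highest in this wider sum.

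**Figure D5:**
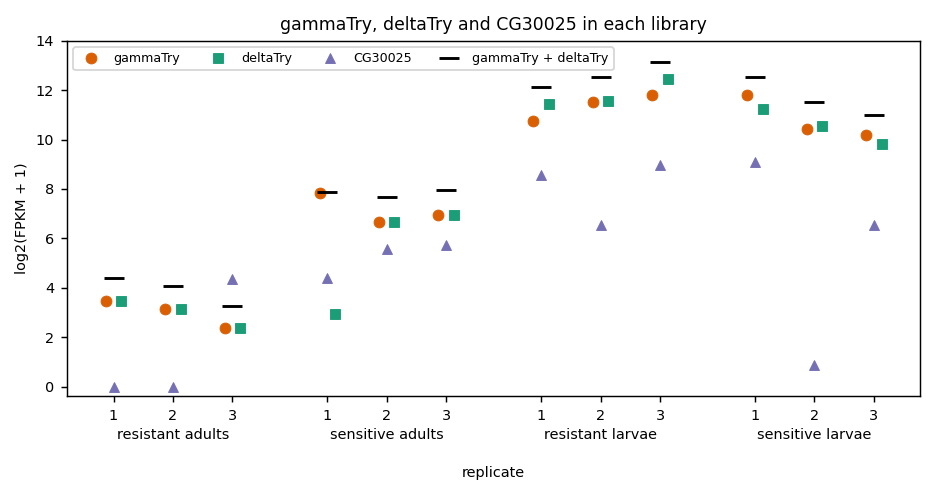
Levels of gammaTry, deltaTry, CG30025 and the sum of gammaTry and deltaTry, as log2(FPKM + 1), in each of the 12 libraries. gammaTry and deltaTry coincide in all adult libraries except sensitive adults replicate 1, where they are at 231 and 6.70 FPKM, and their sum is lower in each resistant than in each sensitive adult library.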

How the data were processed

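Per the labels' protocols, TRIzol was used to extract total RNA from whole bodies, and a BGISEQ-500 to sequence it. The build dm6 and the tools STAR, RSEM 1.3.3, FastQC 0.11.9 and edgeR 3.12 are named in the submitters' processing notes, without settings or roles. The authors deposited FPKM with 2 decimals for 14001 genes in 12 libraries, 3 per group. Of the identifiers, 13776 matched a name in the Ensembl annotation of dm6 used for coordinates. Depth was estimated from the steps of low FPKM values, of which 92.5 to 98.1% were whole multiples of 1 read to within 0.2. For a fixed depth 40% would be so by chance. The depth and length offset with the best match were taken, so 40% is not the rate for that best match. Strand use and the division of reads between near-identical genes are not given in the sources used here.

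Genes with at least 3 libraries of a fit at 1 FPKM or more were tested as log2(FPKM + 1) with limma 3.58.1 in R 4.3.3, with empirical Bayes moderation, robust and with a trend of variance on mean, two-sided, with Benjamini-Hochberg adjustment over all genes and a threshold of 0.05. Fold changes on this scale understate those of low genes. Each strain or stage comparison used its own 6 libraries, and the difference used 12. No scaling was applied in the main fits. Alternatives were median-of-ratios scaling, a pseudocount of 0.1, no filter, a mean of at least 5 FPKM, a replicate block, 1 fit of all 12 libraries, an adjusted p of 0.01 and each library left out. The sum of gammaTry and deltaTry, also without sensitive larvae replicate 1, and the list counts without that library were added after the data were seen. Steps were tested on simulated data. Comparisons share libraries, so no overlap between them was tested. The members and lists were chosen with earlier results of these data known. Values are given in every library for members called between strains or for the difference, and for the 8 with the highest mean FPKM, and of each list up to 2 genes per direction with the largest fold change are named. Other genes were named after their values were seen. Figures were made with matplotlib 3.10.9 under Python 3.11.15.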

Additional observations from a re-analysis of the deposited data

Results flagged for a closer look

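For 7 members the effect of the resistant strain differed between adults and larvae by limma's test of the difference over all 12 libraries, and each had a negative difference, the strain effect in adults minus that in larvae. The log2 difference was -3.31 for alphaTry, -2.63 for Jon65Aiv, -2.35 for Jon65Aiii, -2.56 for thetaTry, -4.71 for gammaTry, -2.40 for iotaTry and -1.63 for etaTry. The median was -0.48 over the members and -0.30 over all genes, and 19.7% of all genes were called in this direction. alphaTry, Jon65Aiv and Jon65Aiii were lower in resistant than in sensitive adults and higher in resistant than in sensitive larvae, each called in both stages without scaling. gammaTry, iotaTry and etaTry were called in adults, and thetaTry in neither stage on its own. After median-of-ratios scaling the differences of thetaTry, iotaTry and etaTry no longer passed, and 7.82% of all genes were lower.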

How the results depend on the processing

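No member that was called reversed its direction under the alternatives listed among the methods, and the number of members called moved by over 1.5 times only in the comparisons of the strains. In larvae, where 6 were called, 1 was called at an adjusted p of 0.01, and 3 to 14 with single libraries left out. Of all genes 58.7% were called, 37.4% at 0.01, and 45.3 to 56.7% with single libraries left out. In adults, where 8 were called, 5 were called after median-of-ratios scaling, 4 in 1 fit of all 12 libraries, 2 at an adjusted p of 0.01, and 1 to 12 with single libraries left out. The shares of all genes were 19.9%, 15.1%, 23.4%, 5.17% and 4.36 to 20% in that order. For the difference between stages, where 7 were called, 4 were called after scaling, 4 at an adjusted p of 0.01, and 5 to 11 with single libraries left out. Here the shares of all genes were 29.7%, 23.5%, 10.7% and 17.3 to 38.8%. Between adults and larvae 19 to 22 members were called in the resistant strain and 14 to 22 in the sensitive strain. A pseudocount of 0.1, no filter and a mean of at least 5 FPKM kept every count within 1.5 times. The cause of these changes was not tested. With a replicate block, 6 members were called in larvae, 11 in adults, 21 and 16 between stages in the resistant and sensitive strain, and 6 for the difference. In the same order, 55.2, 21, 52.4, 67.3 and 30.9% of all genes were called. Deviations of same-numbered libraries correlated at -0.262 to 0.202, so the numbers were not taken to pair the samples. With 3 libraries a group, small differences of single genes lie within the spread, and levels in whole bodies do not resolve the gut.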
